A study of Rattus norvegicus with 4 samples.

Results

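Stellate cells of the liver are stromal cells that talk to leukocytes through secreted and membrane-bound proteins, and 7 such genes were followed here: the chemokine genes Cxcl12, Cx3cl1, Cxcl1 and Ccl2, the macrophage growth factor gene Csf1, and the cytokine genes Il33 and Il6. They were picked by gene name and were represented by 11 of the 41012 gene probes on the arrays, and by 7 of 35537 gene names. All 11 probes were bright enough to be kept, and the 7 genes stood among 25501 tested. The tested cells were hepatic stellate cells taken from rats and transfected with an siRNA against endoglin, a co-receptor of the TGF-beta and BMP family, and rat stellate cells left without transfection (untreated). Both were hybridized in Cy5, each time together with Cy3-labelled RNA of stellate cells that had received a control siRNA. There was no dye swap, so in a ratio to control siRNA cells a difference between the dyes at a probe cannot be told apart from one between the cells. Each group had 2 arrays, one with RNA of 1 animal and one with RNA pooled from 3 animals (for the siRNAs, transfected separately). Strain, sex, age, days in culture, the siRNA sequences and the time after transfection are not stated in the labels. The labels do not say whether arrays of 1 RNA source shared a control RNA, so p-values cover only the spread between these arrays.

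CXCL12 binds CXCR4 and holds haematopoietic cells near the stroma that makes it. CX3CL1 (fractalkine) is made as a membrane-anchored chemokine that ADAM10 and ADAM17 release, and its receptor CX3CR1 is carried by monocytes and macrophages. CXCL1 draws neutrophils through CXCR2, CCL2 draws monocytes through CCR2, and both genes are classical targets of NF-kappaB in inflamed tissue. CSF1 binds CSF1R and keeps macrophages alive, IL-33 is a nuclear alarmin whose receptor chain is encoded by Il1rl1, and IL-6 signals through IL6R and IL6ST to STAT3.

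Promoter windows from RefSeq (assembly GRCr8) were available for 5 of the 7 genes. They are shown for Cxcl12 and Cx3cl1, which moved in opposite directions after endoglin siRNA, for Cxcl1, which differed most between RNA sources among the genes with a window, and for Il33. The sequences are the 250 bases before an annotated start, 5′ to 3′ on the gene's strand:
Cxcl12 (chr4:152060531-152060780, plus strand): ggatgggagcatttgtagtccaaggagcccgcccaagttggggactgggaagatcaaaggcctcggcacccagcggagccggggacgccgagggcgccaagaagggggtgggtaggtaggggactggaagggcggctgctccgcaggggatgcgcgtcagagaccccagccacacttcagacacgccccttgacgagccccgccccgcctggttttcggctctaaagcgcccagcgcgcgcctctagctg
Cx3cl1 (chr19:10242821-10243070, minus strand): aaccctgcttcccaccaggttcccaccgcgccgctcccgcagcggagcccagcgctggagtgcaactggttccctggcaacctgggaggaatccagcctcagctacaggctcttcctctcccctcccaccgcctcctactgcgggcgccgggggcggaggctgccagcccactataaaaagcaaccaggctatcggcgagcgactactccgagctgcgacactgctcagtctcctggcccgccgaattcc
Cxcl1 (chr14:17479322-17479571, minus strand): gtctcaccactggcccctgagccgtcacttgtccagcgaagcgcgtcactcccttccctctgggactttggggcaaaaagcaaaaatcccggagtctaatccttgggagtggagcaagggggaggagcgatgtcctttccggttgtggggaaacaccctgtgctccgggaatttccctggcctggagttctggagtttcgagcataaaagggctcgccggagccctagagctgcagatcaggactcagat
Il33 (chr1:237115323-237115572, plus strand): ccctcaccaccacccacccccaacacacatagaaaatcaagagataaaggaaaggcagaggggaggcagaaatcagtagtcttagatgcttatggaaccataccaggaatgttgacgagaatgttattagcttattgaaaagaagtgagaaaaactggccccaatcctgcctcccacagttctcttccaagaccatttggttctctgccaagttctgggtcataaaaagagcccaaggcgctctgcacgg
The windows, which run on to 50 bases after the start, had a GC content of 66.7% for Cxcl12, 66.3% for Cx3cl1, 58.0% for Cxcl1 and 47.0% for Il33. Over 33469 windows of 300 bases the median was 51.7%. Cxcl12 and Cx3cl1 thus had GC-rich windows of almost the same composition, above 86.8% and 86.2% of all windows. A second Il33 start had 41.0% and Il6 had 46.0%. Ccl2 and Csf1 are named only.

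The arrays showed the genes the siRNA and the cell label refer to. The probe for Eng (endoglin) gave log2 ratios to control siRNA cells of -3.08 and -1.72 on the endoglin siRNA arrays (1 animal, pool), against -0.36 and -0.42 on the untreated arrays. Of 13 stellate cell markers with a probe, 12 or 13 were well above background in each channel of each array. The share of gene spots well above background lay between 61.9% and 93.3% per channel. Dim genes on both pooled arrays need a caution. On these arrays 9 spots (5 on the untreated and 4 on the endoglin siRNA array) read more than 200 units below their local background, and the fitted spread of the background was 653 with them and 9.09 without them in Cy5 of the pooled untreated array, and 296 against 0.771 in Cy5 of the pooled endoglin siRNA array. Ratios of dim probes on the pooled arrays are pulled toward 0 by that correction. Values with the background fitted without these disturbed spots are therefore given beside the others where they differ.

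Of the 7 genes, Cxcl12, Cx3cl1, Csf1 and Il33 had arrays of the 2 groups that did not overlap, as did 35.9% of all genes. The 7 genes split in direction after endoglin siRNA. On the array of 1 animal, Ccl2, Cxcl1, Cx3cl1 and Csf1 stood above control siRNA cells and Il33 and Cxcl12 stood below, with Il6 at the control level. On the pooled array the order of signs was the same, except that Ccl2 lay close to control. Against control siRNA cells, 2 of the 7 genes (Cx3cl1 and Csf1) were called higher and 2 (Cxcl12 and Il33) lower at an adjusted p under 0.05, beside a background of 8.14% of all genes called (5.26% higher and 2.89% lower). These genes were selected with this comparison known, so its values are a description. So are their values in endoglin siRNA against untreated cells, in any setting, since that comparison uses the same endoglin siRNA arrays. All 4 calls were lost with median centring, with scaling between arrays, with Feature Extraction log ratios and with the authors' value table, settings under which 0 of all genes were called in limma (7103 at an unadjusted p under 0.05 with Feature Extraction). In untreated cells 0 of the 7 genes passed limma's test, beside 0.71% of all genes. At an unadjusted p under 0.05 there were 2 of the 7, Cx3cl1 and Cxcl12, both above control siRNA cells, beside 13.6% of all genes. With the background fitted without the disturbed spots 1 of 7 passed there, Cx3cl1 at 0.47 ± 0.07 (adjusted p = 0.0276), beside 1.84% of all genes.

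**Figure D1:**
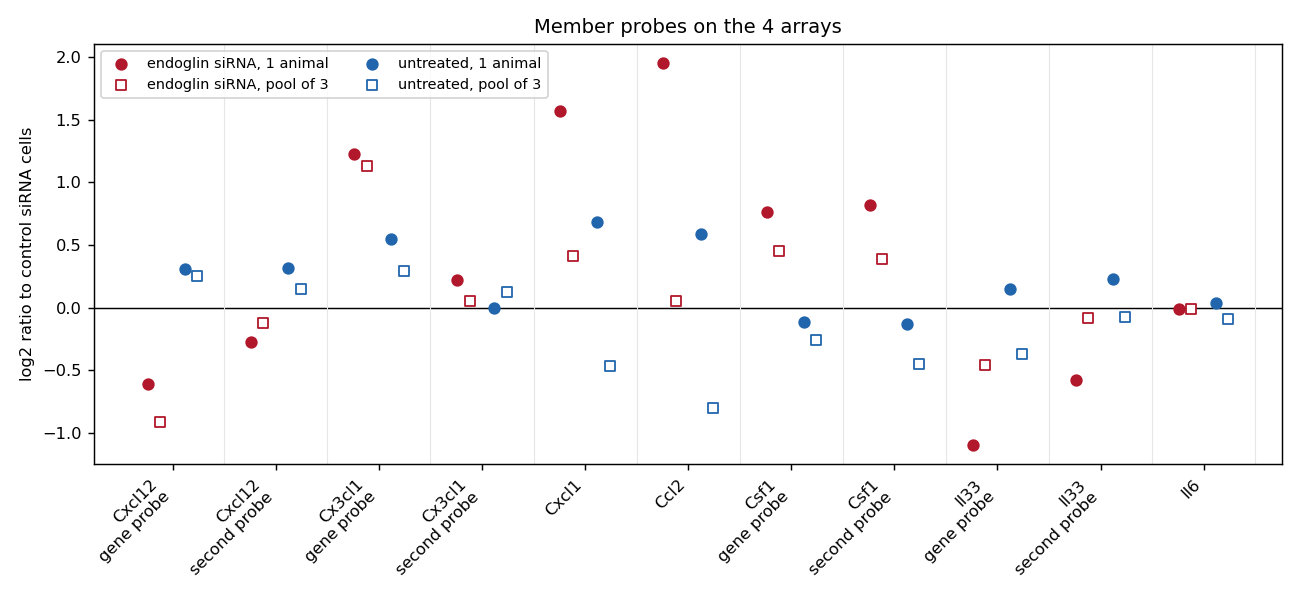
Log2 ratio to control siRNA cells (y axis) of all 11 member probes (x axis) on each array; red marks are endoglin siRNA arrays, blue marks untreated arrays, filled circles RNA of 1 animal and open squares pools of 3 animals. The 2 red marks of the gene probes of Cx3cl1 (1.23 and 1.13) and Csf1 (0.76 and 0.45) lie above the blue ones and those of Cxcl12 (-0.61 and -0.91) below, while those of Ccl2 lie 1.90 apart.

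By its normalized ratios, Cxcl12 was lower than in control siRNA cells on both endoglin siRNA arrays and not on the untreated ones. Its probe, designed on transcript NM_001033883, read 28580 and 51130 units of processed Cy5 signal in endoglin siRNA cells (1 animal, pool), against 45340 and 100100 units of Cy3 signal in control siRNA cells on the same arrays. In untreated cells it read 50520 and 66710 units, against 45290 and 71270 units in control siRNA cells. The transcript was thus among the bright signals in every channel and fell below its control channel on both arrays with the siRNA against endoglin. The normalized log2 ratios were -0.61 and -0.91 on the endoglin siRNA arrays, against 0.31 and 0.25 on the untreated arrays. The groups did not overlap, although the log ratio of Feature Extraction for untreated cells of the pool was -0.10. The mean was -0.76 ± 0.08 in endoglin siRNA cells (SE, n = 2 arrays), and 0.28 ± 0.08 in untreated cells (adjusted p = 0.194). Endoglin siRNA minus untreated was -1.04 ± 0.12 on the log2 scale (95% interval -1.31 to -0.77, adjusted p = 0.0475), 2.06-fold lower. Cxcl12 was the only member of the 7 to pass that comparison, which called 0.102% of all genes and which uses the same endoglin siRNA arrays as the selection. The call was lost with Feature Extraction log ratios (-0.85), with scaling between arrays (-1.91), with the mean over both probes (-0.74), and without the untreated array of 1 animal (-1.01) or without the pooled untreated array (-1.07), and with median centring in place of loess the difference was 0.04 and the mean against control siRNA 0.62.

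The second Cxcl12 probe, designed on NM_022177, moved the same way by less. Its log2 ratios were -0.27 and -0.12 on the endoglin siRNA arrays, against 0.31 and 0.15 on the untreated arrays, again without overlap. Its processed signals were 45040 and 49650 units in endoglin siRNA cells, against 60900 and 57270 units in control siRNA cells on these arrays. The difference between endoglin siRNA and untreated cells was -0.43 ± 0.10, compared with -1.04 ± 0.12 for the first probe. The second probe's ratio was 0.34 and 0.79 above that of the first on the endoglin siRNA arrays, against 0.01 and -0.10 on the untreated arrays. The 2 probes belong to different RefSeq transcripts of the gene.

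Cx3cl1, the gene of the membrane-anchored chemokine fractalkine, was above control on both endoglin siRNA arrays by nearly the same amount. Its bright probe read 2342 and 4456 units of processed signal in endoglin siRNA cells, against 917.3 and 1959 units in control siRNA cells. In untreated cells the same probe read 909.5 and 2099 units, against 631.7 and 1633 units in control siRNA cells. Both groups lay above control, and the endoglin siRNA arrays lay above the untreated ones. The log2 ratios were 1.23 and 1.13 on the endoglin siRNA arrays, against 0.55 and 0.29 on the untreated arrays. The mean was 1.18 ± 0.08 in endoglin siRNA cells (2.26-fold), and 0.42 ± 0.08 in untreated cells (adjusted p = 0.067). The difference between endoglin siRNA and untreated cells was 0.76 ± 0.11 (adjusted p = 0.0946). It passed without the disturbed spots at 0.74 ± 0.11 (adjusted p = 0.0275), a setting that called 0.8% of all genes. It also passed with the RNA source as a block (adjusted p = 0.0092, 1.05% of all genes called) and without background correction (adjusted p = 0.0344, 170 of 25501 genes called). It did not pass with Feature Extraction log ratios (adjusted p = 0.409), median centring (0.629), scaling between arrays (0.839) or the mean over both probes (0.42, adjusted p = 0.265).

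The second Cx3cl1 probe was close to background, at 64.7 and 94.2 units in endoglin siRNA cells, against 39.3 and 57.1 units in control siRNA cells. Its log2 ratios were 0.22 and 0.05 on the endoglin siRNA arrays, against -0.01 and 0.12 on the untreated arrays, so the groups overlapped. Without the disturbed spots the pooled arrays gave 0.43 for endoglin siRNA and 0.27 for untreated cells. The log ratios that Feature Extraction computed for this probe were 0.72 and 0.72 on the endoglin siRNA arrays, against -0.22 and 0.33 on the untreated arrays. The ratio of this dim probe thus changed with the background correction.

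Cxcl1, a neutrophil attractant, differed by RNA source as well as by treatment. Its processed signal was 4244 and 738 units in endoglin siRNA cells (1 animal, pool), against 1371 and 435.8 units in control siRNA cells. It was 3338 and 191.7 units in untreated cells, against 2045 and 407.2 units in control siRNA cells. In all 3 kinds of cells the signal was several times higher on the array of 1 animal than on the pooled array. The log2 ratios were 1.57 and 0.41 on the endoglin siRNA arrays, against 0.68 and -0.47 on the untreated arrays, and the groups overlapped. The mean ratio was 0.99 ± 0.31 in endoglin siRNA cells, and 0.11 ± 0.31 in untreated cells (adjusted p = 0.93). Within 1 RNA source the endoglin siRNA array exceeded the untreated array by 0.89 for the single animal and by 0.88 for the pool, or by 0.89 and 1.54 without the disturbed spots. Across all 4 arrays the difference of 0.88 ± 0.44 did not pass (adjusted p = 0.693), and it passed with the RNA source as a block (adjusted p = 0.00443). The block fit called 1.05% of all genes and left 1 residual degree of freedom before moderation, and the labels do not say that arrays of 1 RNA source came from the same animals.

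Ccl2, the monocyte attractant, had the same arrangement with a wider span. Its probe sat at 10 places on each array, and the mean processed signal was 97030 and 7270 units in endoglin siRNA cells, against 27350 and 7237 units in control siRNA cells. In untreated cells it was 34670 and 3415 units, against 23940 and 5907 units in control siRNA cells. Control siRNA cells of the single animal thus had a brighter Ccl2 signal than those of the pool on both pairs of arrays. The log2 ratios were 1.95 and 0.05 on the endoglin siRNA arrays, against 0.59 and -0.81 on the untreated arrays. The replicate spots lay within 1.86 to 2.00 on the array of 1 animal and within -0.01 to 0.09 on the pooled array after endoglin siRNA (SD 0.05 and 0.03). The spread of spots is technical and within 1 array, and says nothing about the spread between animals. Endoglin siRNA minus untreated was 1.37 for the single animal and 0.86 for the pool. The mean ratio was 1.00 ± 0.44 in endoglin siRNA cells, and -0.11 ± 0.44 in untreated cells (adjusted p = 0.953). The difference of 1.11 ± 0.62 between the groups did not pass (adjusted p = 0.739, 95% interval -0.35 to 2.57), and passed with the block (adjusted p = 0.00708).

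**Figure D2:**
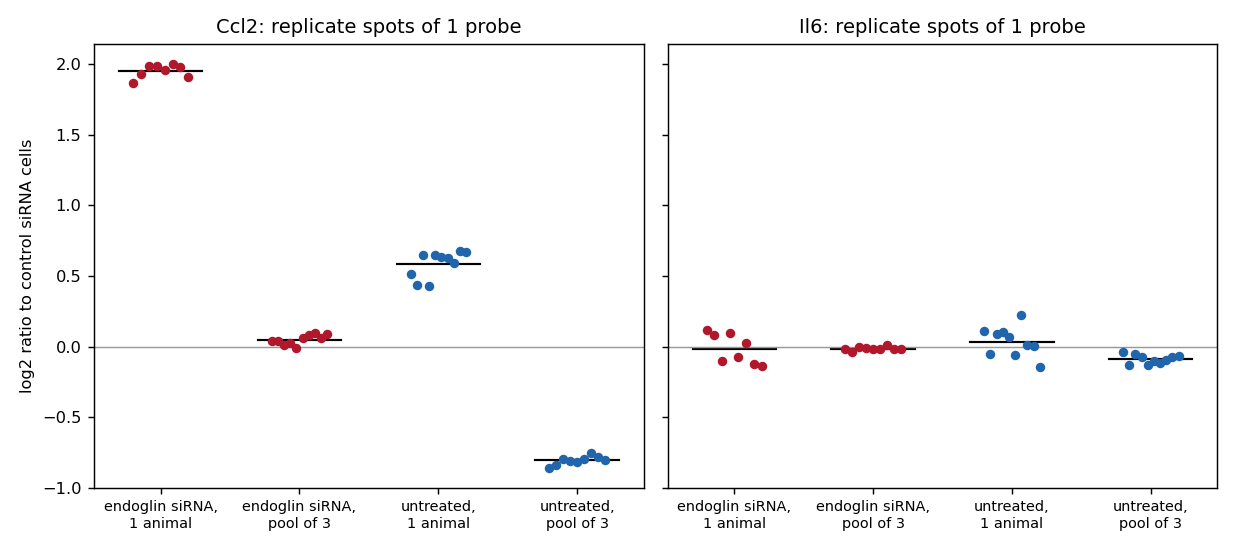
Log2 ratio to control siRNA cells (y axis) of each used spot of the Ccl2 and Il6 probes on the 4 arrays (x axis), with a line at the mean of the spots. The Ccl2 spots of each array form separate tight groups at 1.95, 0.05, 0.59 and -0.81, while the Il6 spots of every array lie within -0.14 to 0.22 with the background fitted on all spots, as drawn (without the disturbed spots the pooled Il6 means are -0.12 for endoglin siRNA and -0.29 for untreated cells).

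Macrophage marker signals were also higher in RNA of 1 animal than in that of the pool, and in bulk RNA fewer cells of a type and less RNA per cell cannot be told apart. The processed signals of 16 Kupffer cell and macrophage markers summed to 39540 and 4254 units in endoglin siRNA cells (1 animal, pool), against 36860 and 5376 units in control siRNA cells of these arrays. They summed to 65310 and 22370 units in untreated cells, against 32380 and 5582 units in control siRNA cells. Control siRNA cells had about the same sum on both arrays of 1 RNA source. Of the 16 markers, 0 passed limma's test in endoglin siRNA cells against control, where 8.14% of all genes did. There 12 had a ratio above 0, the median was 0.09 and 2 had an unadjusted p under 0.05. Of all 25501 genes, 14865 had a ratio above 0 and 5885 an unadjusted p under 0.05. In untreated cells against control 7 of 16 rose, beside 0.71% of all genes called. There 16 of 16 were above 0, beside 12870 of 25501 genes, with a median of 0.88. Markers such as Cd74 (-0.95, adjusted p = 0.0256) and C1qa (-1.09, adjusted p = 0.0381) were lower in endoglin siRNA cells than in untreated cells, 2 of 16 in all, beside 0.102% of all genes called. Without the disturbed spots 1 of 16 rose after endoglin siRNA (8.95% of all genes) and 11 of 16 rose in untreated cells (1.08% of all genes). In that setting 5 of 16 were lower in endoglin siRNA than in untreated cells (0.561% of all genes). The part of macrophages in the difference between RNA sources was not tested.

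**Figure D3:**
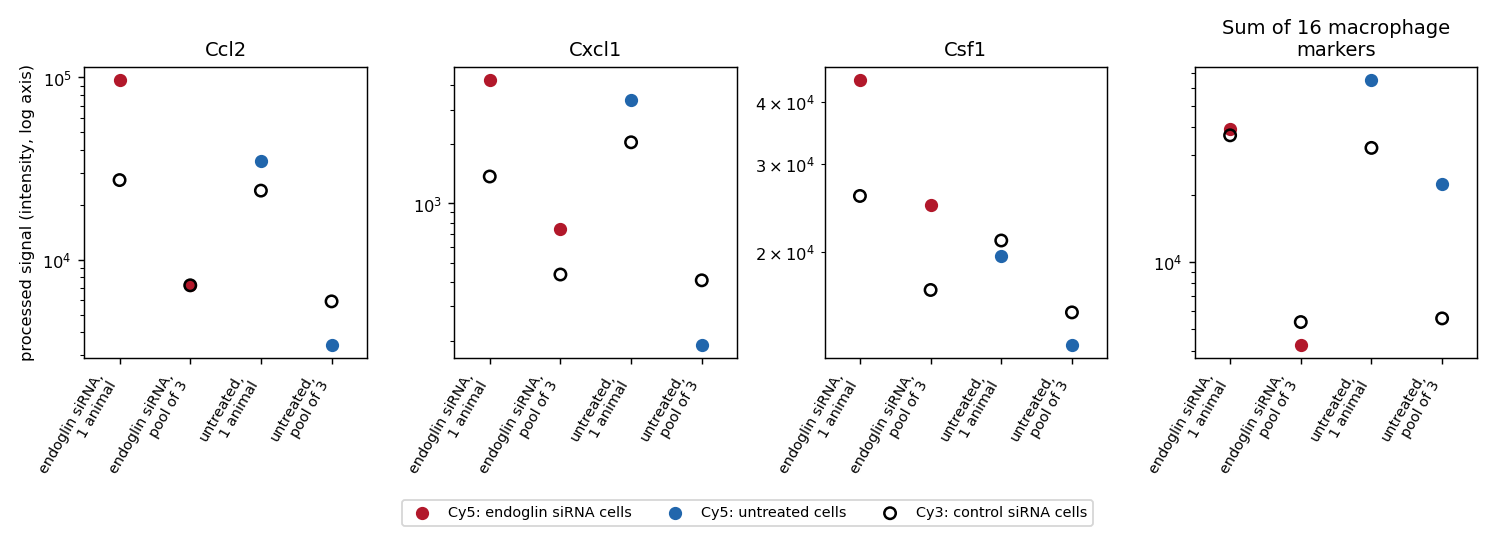
Processed signal (intensity, log axis) of Ccl2, Cxcl1, Csf1 and the sum of 16 macrophage markers on the 4 arrays (x axis); filled points are Cy5 (red endoglin siRNA cells, blue untreated cells) and open points are Cy3, the control siRNA cells of the same array. For Ccl2 and Cxcl1 both channels are higher on the arrays of 1 animal, and the macrophage sum of untreated cells (65310 and 22370) exceeds that of endoglin siRNA cells (39540 and 4254) in both RNA sources.

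Csf1, the growth factor gene for macrophages, rose above control on both arrays after endoglin siRNA and did so with both of its probes. The bright probe read 44290 and 24830 units in endoglin siRNA cells, against 25870 and 16740 units in control siRNA cells. In untreated cells it read 19620 and 12990 units, against 21050 and 15090 units in control siRNA cells. The log2 ratios were 0.76 and 0.45 on the endoglin siRNA arrays, against -0.11 and -0.26 on the untreated arrays. The second probe gave 0.82 and 0.39 on the endoglin siRNA arrays, against -0.13 and -0.45 on the untreated arrays. With either probe the groups lay on opposite sides of control. The mean of the bright probe was 0.61 ± 0.09 in endoglin siRNA cells (1.52-fold), and -0.19 ± 0.09 in untreated cells (adjusted p = 0.409). The difference between endoglin siRNA and untreated cells was 0.79 ± 0.12 (adjusted p = 0.11). It passed at 0.80 ± 0.13 when the disturbed spots were left out of the background fit (adjusted p = 0.0384), and it passed with the RNA source as a block (adjusted p = 0.00828). It was 0.87 for the single animal and 0.71 for the pool.

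Il33, listed on the array under the older name RGD1311155 and named through its accession, was lower after endoglin siRNA. Its bright probe read 406.6 and 372.8 units in endoglin siRNA cells, against 982.1 and 852.8 units in control siRNA cells. In untreated cells it read 715.8 and 526.1 units, against 646.5 and 738.1 units in control siRNA cells. By these signals endoglin siRNA cells had the lowest value in both RNA sources. The log2 ratios were -1.10 and -0.46 on the endoglin siRNA arrays, against 0.15 and -0.37 on the untreated arrays, so the groups did not overlap, with a difference of -0.09 within the pool and of -1.25 within the single animal. Without the disturbed spots the pooled arrays gave -1.06 for endoglin siRNA and -0.45 for untreated cells. The mean in endoglin siRNA cells was -0.78 ± 0.16 with all spots and -1.08 ± 0.13 without the disturbed ones. The call against control siRNA was lost with the mean over both probes (-0.555) and without the endoglin siRNA array of 1 animal (-0.46). In untreated cells the mean was -0.11 ± 0.16 (adjusted p = 0.843). The difference between endoglin siRNA and untreated cells did not pass, at -0.67 ± 0.23 (adjusted p = 0.48) or at -0.93 ± 0.18 without the disturbed spots (adjusted p = 0.0695). The dim second probe gave -0.58 and -0.08 on the endoglin siRNA arrays, against 0.23 and -0.08 on the untreated arrays, and -0.65 and -0.29 on the pooled endoglin siRNA and untreated arrays without the disturbed spots.

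Il6 was near background in every channel, so these arrays say little about it. Its processed signal was 22.6 and 52.2 units in endoglin siRNA cells, against 27.8 and 64.2 units in control siRNA cells. In untreated cells it was 19.0 and 76.1 units, against 16.2 and 107.1 units in control siRNA cells. Between 7 and 10 of its 10 spots were well above background in each channel. The log2 ratios were -0.02 and -0.02 on the endoglin siRNA arrays, against 0.04 and -0.09 on the untreated arrays. With the disturbed spots left out of the background fit, the pooled arrays gave -0.12 for endoglin siRNA and -0.29 for untreated cells. The mean in endoglin siRNA cells was -0.02 ± 0.06 (95% interval -0.16 to 0.13), and endoglin siRNA minus untreated was 0.01 ± 0.09 (adjusted p = 0.995, 95% interval -0.20 to 0.22). At this signal a change in Il6 was not detectable, and the log ratios of Feature Extraction were -0.29 and -0.30 on the endoglin siRNA arrays, against 0.27 and -0.50 on the untreated arrays.

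**Figure D4:**
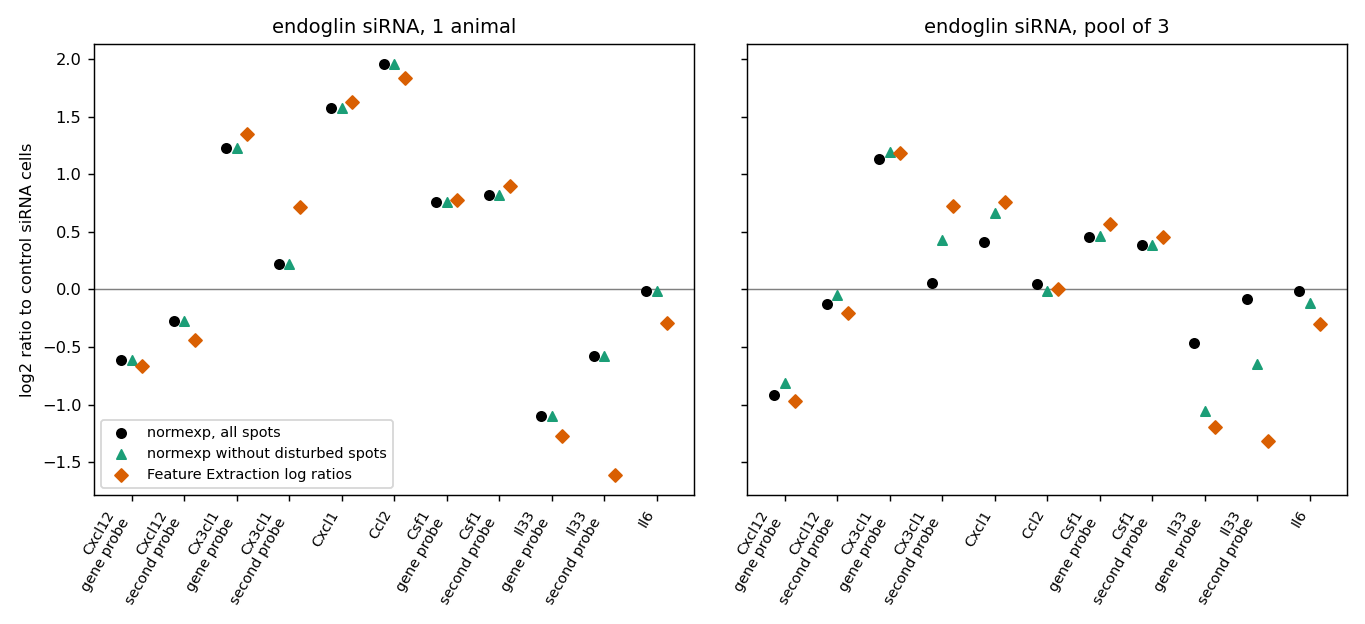
Log2 ratio to control siRNA cells (y axis) of the 11 member probes (x axis) on the endoglin siRNA array of 1 animal (left) and of the pool (right) with 3 ways of correcting the background. The marks lie close together for bright probes, and on the pooled array the dim probes of Il33 (-0.08, -0.65 and -1.32) and Cx3cl1 (0.05, 0.43 and 0.72) spread apart.

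Other ligands of the chemokine family were called about as often as genes in general. Of 24 measured, 1 rose after endoglin siRNA, where 5.26% of all genes did. Ratios above 0 were seen for 21 of 24, beside 14865 of 25501 genes. The median was 0.20, beside a median of 0.02 over all genes. The gene that rose was Cxcl14, a chemokine of epithelia and stroma, with log2 ratios of 0.91 and 0.52 in endoglin siRNA cells, against 0.32 and -0.28 in untreated cells (0.72 ± 0.15 against control siRNA, adjusted p = 0.0288). Without the disturbed spots 3 of 24 rose, where 8.95% of all genes did, with Ccl19 (0.59, adjusted p = 0.0234) and Cxcl2 (adjusted p = 0.0461) added. In untreated cells, where 0.71% of all genes were called, 1 of 24 rose, the platelet factor gene Pf4 at 0.89 ± 0.14 (adjusted p = 0.0456). There 20 of 24 also had a ratio above 0, with a median of 0.07, beside 12870 of 25501 genes. Ratios above control were thus about as frequent in this list without endoglin siRNA. Between endoglin siRNA and untreated cells 0 of 24 passed by limma's test (2 had an unadjusted p under 0.05, beside 2100 of 25501 genes). Of 17 other cytokines and haematopoietic growth factors, 1 rose after endoglin siRNA, near the 5.26% of all genes, with a median of 0.02. It was Kitlg, the ligand of the KIT receptor, at 0.79 and 0.60 in endoglin siRNA cells, against 0.14 and 0.06 in untreated cells (0.70 ± 0.07, adjusted p = 0.0046).

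Receptors of the 7 proteins and the enzymes that process them gave no call by limma's test against control siRNA after endoglin siRNA. At an unadjusted p under 0.05 there were 3 of 7 receptors and 2 of 8 enzymes, beside 5885 of 25501 genes. Without the disturbed spots 1 receptor rose and 1 receptor and 1 enzyme fell, beside 8.95% of all genes higher and 7.37% lower. Of 13 receptor genes listed, 7 were measured. Ccr2, Cx3cr1, Cxcr1 and Cxcr2 had a probe that was not kept. The 2 measured receptors farthest from control were Il1rl1, which encodes the IL-33 receptor chain, and Cxcr4, which encodes the CXCL12 receptor. By its brightest probe, Il1rl1 had log2 ratios of 0.08 and -1.85 in endoglin siRNA cells, against -0.40 and -2.93 in untreated cells. With that probe both pooled arrays were far below control and both arrays of 1 animal near it (mean -0.89 ± 0.59 in endoglin siRNA cells, adjusted p = 0.451). A second kept Il1rl1 probe lay near control throughout, at 0.06 and -0.01 in endoglin siRNA cells, against -0.12 and -0.01 in untreated cells. Cxcr4 had -1.10 and 0.01 in endoglin siRNA cells, against -0.20 and 0.14 in untreated cells (mean -0.54 ± 0.22, adjusted p = 0.197). Of 8 sheddases and processing enzymes, 0 passed after endoglin siRNA, and Adam10 (0.03) and Adam17 (0.09), the enzymes that release CX3CL1, named here for that role, lay near control. Ctss, a lysosomal protease abundant in macrophages, rose in untreated cells (1.18 ± 0.07, adjusted p = 0.00586) and was lower in endoglin siRNA than in untreated cells (-1.04 ± 0.10, adjusted p = 0.0259).

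In the list of NF-kappaB and STAT3 pathway genes and targets, 7 of 27 rose after endoglin siRNA and 0 fell, with a median of 0.10. Of all genes 5.26% rose and 2.89% fell, and their median was 0.02. At an unadjusted p under 0.05 there were 13 of 27, with 10 higher and 3 lower, beside 5885 of 25501 genes. The list was chosen with earlier results of these data known, so its counts are a description. Nfkbia, which encodes the inhibitor IkappaB-alpha and is itself an NF-kappaB target, had log2 ratios of 0.58 and 0.63 in endoglin siRNA cells, against 0.07 and 0.05 in untreated cells (0.61 ± 0.06, adjusted p = 0.00449). A second kept Nfkbia probe gave 0.61 and 0.14 in endoglin siRNA cells, against 0.21 and -0.09 in untreated cells, so its groups overlapped. Nfkb1, the gene of the p105 precursor, rose by 0.42 ± 0.07 (adjusted p = 0.0151) and the kinase gene Ikbkb by 0.39 ± 0.07 (adjusted p = 0.0195). The lipopolysaccharide co-receptor gene Cd14 stood 0.55 ± 0.09 above control (adjusted p = 0.0178). Its log2 ratios were 0.35 and 0.75 in endoglin siRNA cells, against 0.51 and 0.48 in untreated cells, so the groups overlapped. Tlr4, Birc3 and Ptgs2 also passed. By limma's test 0 of 27 passed in untreated cells (7 had an unadjusted p under 0.05, beside 13.6% of all genes). Between endoglin siRNA and untreated cells 0 of 27 passed (3 had an unadjusted p under 0.05, beside 2100 of 25501 genes). A difference from untreated cells was thus not shown for these genes. With median centring or the log ratios of Feature Extraction 0 of 27 passed against control siRNA. Without the disturbed spots 8 of 27 rose and 2 fell after endoglin siRNA, beside 8.95% of all genes higher and 7.37% lower in that setting.

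**Figure D5:**
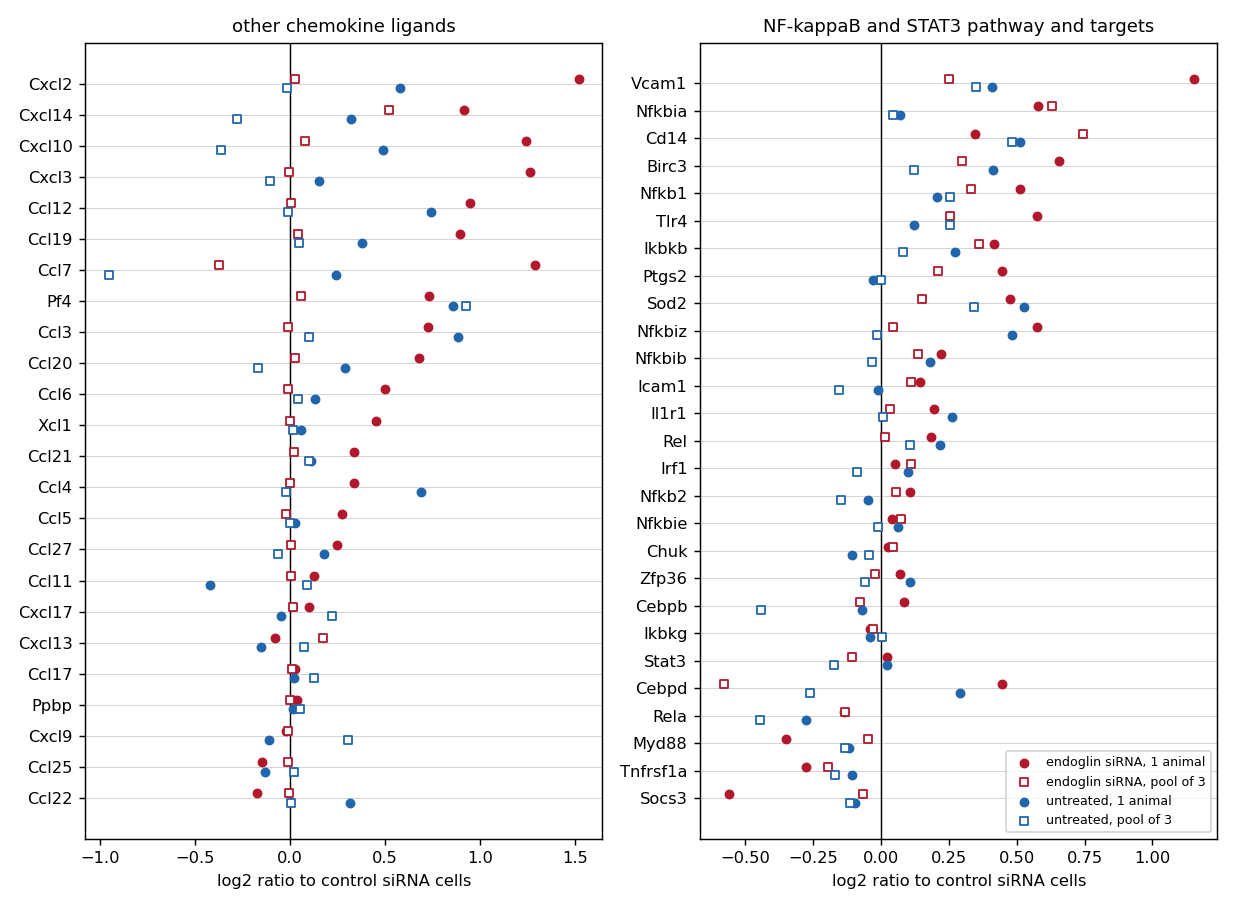
Log2 ratio to control siRNA cells (x axis) of the 24 other chemokine ligands (left) and the 27 NF-kappaB and STAT3 pathway genes (right) on each array, sorted by the mean of the endoglin siRNA arrays; red is endoglin siRNA, blue untreated, filled circles 1 animal and open squares pools of 3. By its brightest probe Nfkbia has both red marks (0.58 and 0.63) apart from the blue (0.07 and 0.05), and many chemokines have a red circle well above 0 with a red square near 0.

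Markers of sinusoidal endothelial cells, which also make CX3CL1, stand beside the Cx3cl1 values. Of 9 measured, 2 rose after endoglin siRNA, where 5.26% of all genes did: Kdr (0.87, adjusted p = 0.0309) and Oit3 (0.88, adjusted p = 0.00373). The median of the list was 0.08. Kdr had log2 ratios of 1.33 and 0.41 in endoglin siRNA cells, against -0.03 and -0.03 in untreated cells. Oit3 had 0.94 and 0.83 in endoglin siRNA cells, against -0.19 and -0.43 in untreated cells. Kdr and Oit3 were above control on both endoglin siRNA arrays, as was Cx3cl1. The other measured markers were not called there: Pecam1 (0.18 and 0.00), Cdh5 (-0.03 and 0.01), Tek (0.15 and 0.00), Tie1 (-0.21 and -0.01), Vwf (-0.07 and 0.03), Lyve1 (0.10 and 0.01) and Fcgr2b (0.27 and 0.04). Of 11 markers with a probe, between 5 and 10 were well above background in each channel of each array. Oit3 was also higher in endoglin siRNA than in untreated cells (1.19 ± 0.11, adjusted p = 0.0256), 1 of 9 in all, beside 0.102% of all genes called. Without the disturbed spots 2 of 9 were higher, beside 0.239% of all genes, with Kdr added (1.35 ± 0.10, adjusted p = 0.00402). The summed processed signals of 11 endothelial markers with a probe were 17450 and 14820 units in endoglin siRNA cells, against 9719 and 16010 units in control siRNA cells. In untreated cells they were 13910 and 10650 units, against 14590 and 13040 units in control siRNA cells. The part of these cells in the Cx3cl1 values was not tested.

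The genes whose 4 log2 ratios lay nearest to those of each member were found over all genes with a symbol, by the root mean square difference over the 4 arrays. For Cxcl12 they were Fntb (0.23) and Thbs2 (0.24), and for Cx3cl1 Cbx7 (0.19) and Omd (0.20). For Csf1 they were the stress gene Ddit3 (0.07) and Serpinb7 (0.08). Ddit3 had log2 ratios of 0.74 and 0.58 in endoglin siRNA cells, against -0.07 and -0.23 in untreated cells. Il33 lay nearest to Acvrl1 (0.12), which encodes an endothelial receptor of the TGF-beta and BMP family, and to Fam20a (0.14). Acvrl1 had -1.26 and -0.30 in endoglin siRNA cells, against 0.16 and -0.27 in untreated cells. The nearest gene to Ccl2 was Cxcl1 (0.32), and Cxcl1 lay nearest to Gpc3 (0.21) and the interferon-induced chemokine gene Cxcl10 (0.26). Il6, near background, lay within 0.01 of Hcfc1 and Slc10a7, a nearness that dim genes with ratios close to 0 have with one another.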

How the data were processed

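Rat hepatic stellate cell RNA was measured on 4 two-colour Agilent arrays on 1 slide in 1 scan, with the test cells in Cy5 and control siRNA cells in Cy3 per the labels and without a dye swap. Per the file headers, the authors read the spots in version 9.5.1.1 of Agilent Feature Extraction. The mean, background and processed signals they deposited are intensity values. Processed signals are background-subtracted and dye-normalized within each array and were not scaled between arrays. The deposited log ratios and the deposited value table are log10 values. The value table has Cy5 on top for endoglin siRNA and Cy3 on top for both untreated arrays (correlation of -1 with the scanner ratios), and direction here follows the dyes in the labels.

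Mean signals were corrected with normexp (offset 50) on the local median background and normalized within arrays by loess, both in limma 3.58.1 (R 4.3.3). Flagged spots were left out (189 to 289 per array). Spots of 1 probe were averaged, probes well above background in a channel on at least 2 arrays were kept, and the brightest kept probe stood for its gene. Names were updated through RefSeq (6702 genes by accession, 13412 unmatched and kept as listed). A model of 2 group means with empirical Bayes variances gave SEs and p-values, adjusted by Benjamini-Hochberg over 25501 genes, with a threshold of 0.05. The fit was tested on simulated data. The number of arrays limits the precision.

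Members and gene lists were chosen with earlier results of these data known, so their counts beside those of all genes are a description. Of each list, genes that passed (at most 4, lowest adjusted p) were named, or else the 2 farthest from control, and for each member the 2 nearest genes. Alternatives covered the background, the normalization, the filter, the probe rule, the RNA source as a block and each array left out.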

Additional observations from a re-analysis of the deposited data

Results flagged for a closer look

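Cxcl12 and Csf1 had ratios to control siRNA of opposite sign on all arrays of the 2 groups. For Cxcl12, the difference between endoglin siRNA and untreated cells was -1.04 (adjusted p = 0.0475), with both endoglin siRNA arrays below control and both untreated arrays above it. The sign on the pooled untreated array depended on the setting, as the log ratio of Feature Extraction there was -0.10. For Csf1, the difference was 0.79 (adjusted p = 0.11), with both endoglin siRNA arrays above control and both untreated arrays below it.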

How the results depend on the processing

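The numbers of genes called were 2077 for endoglin siRNA against control siRNA, 181 for untreated against control siRNA and 26 for endoglin siRNA against untreated. They were 4499, 514 and 170 without background correction, and 4159, 468 and 204 with the background fitted without the disturbed spots. They were 0, 0 and 0 in limma with the log ratios of Feature Extraction (7103, 3332 and 2775 at an unadjusted p under 0.05), with the deposited value table (7100, 3334 and 2770), with median centring (6173, 73 and 259) and with scaling between arrays (1421, 580 and 350). With no filter on dim probes 360 genes were called in untreated against control siRNA and 47 in endoglin siRNA against untreated, and with the mean over probes 17 in the last. Leaving out 1 array gave 882 to 2671, 0 to 756 and 0 to 431 genes, a lone array being assumed to vary like the other group. Median centring moved the median of all genes to 0.32 for endoglin siRNA against control siRNA and to 0.26 against untreated. It turned Cxcl12 to 0.62 against control siRNA and to 0.0397 against untreated, and in untreated cells Ccl2 to 0.10 and Csf1 to 0.0306. In untreated cells Cxcl1 turned to -0.11 without background correction, -0.19 with Feature Extraction and the value table, -0.10 without the disturbed spots and with scaling, and leaving out 1 untreated array gave -0.467 to 0.684. The same range in untreated cells was -0.806 to 0.587 for Ccl2, -0.373 to 0.151 for Il33 and -0.0881 to 0.0351 for Il6. The near-zero Il6 difference between endoglin siRNA and untreated cells turned to -0.18 with Feature Extraction and the value table, -0.0148 with median centring, and ranged from -0.0504 to 0.0728 when 1 array was left out. The cause of these changes was not tested.

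The 2 groups share replicate numbers only through the RNA source, and same-numbered arrays had a correlation of deviations of 0.29 over genes, from 2 pairs. With the RNA source as a replicate block, 267 genes were called between endoglin siRNA and untreated cells (1.05% of all genes), on 1 residual degree of freedom before moderation. Under the block 5 of the 7 members passed: Cxcl12 (adjusted p = 0.00322), Cxcl1 (0.00443), Ccl2 (0.00708), Csf1 (0.00828) and Cx3cl1 (0.0092), while Il33 (0.261) and Il6 (0.989) did not. The members were selected with results of these endoglin siRNA arrays known, so these passes are a description. Dim signals limit Il6 and the second probes of Cx3cl1 and Il33.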

Other observations

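Among the other chemokine ligands, 4 genes chosen after their values were seen had a ratio over 1 on the endoglin siRNA array of 1 animal and none of these had a ratio over 0.1 on the pooled array. Cxcl2, a neutrophil attractant, had log2 ratios of 1.52 and 0.03 in endoglin siRNA cells, against 0.58 and -0.02 in untreated cells. Ccl7, a monocyte attractant, had 1.29 and -0.37 in endoglin siRNA cells, against 0.24 and -0.96 in untreated cells. Cxcl3 had 1.26 and -0.01 in endoglin siRNA cells, against 0.15 and -0.11 in untreated cells. Cxcl10, an interferon-induced attractant of T cells, had 1.24 and 0.08 in endoglin siRNA cells, against 0.49 and -0.37 in untreated cells. With the background fitted without the disturbed spots, the pooled endoglin siRNA array gave 0.29 for Cxcl2, -0.67 for Ccl7, -0.03 for Cxcl3 and -0.05 for Cxcl10. With all spots 0 of these 4 passed limma's test in any of the 3 comparisons. At an unadjusted p under 0.05 there were 3 of the 4 against control siRNA after endoglin siRNA, beside 5885 of 25501 genes. The choice by a high ratio on 1 of the 2 arrays in that mean favoured low p-values. The count therefore cannot show an excess over all genes. Without the disturbed spots Cxcl2 rose after endoglin siRNA (adjusted p = 0.0461).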
